A study of Homo sapiens with 18 samples.

Results

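Nonsense-mediated decay (NMD) is the pathway by which cells degrade mRNAs whose reading frame ends too early. A ribosome that stops well upstream of an exon junction, where an exon junction complex still marks the spliced site, lets the helicase UPF1 and its partners SMG1, UPF2, UPF3B and SMG5 call in the nucleases. Many genes of splicing factors use the pathway on themselves, since they can splice in a cassette, called a poison exon, that brings a premature stop codon and takes the message away from protein synthesis. The transcripts described here are those that the GENCODE annotation gives the type nonsense mediated decay, chosen by an estimated count that averaged at least 20 over all 18 samples. The annotation predicts this fate from the position of the stop codon, and the decay itself was not measured.

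There were 1935 such transcripts among 10965 of this type and 145326 transcripts in all. They belonged to 1601 gene names of 32490, of which 1336 had 1 of these transcripts, 217 had 2 and 48 had 3 or more. The level that chose them is given as a description only. Their mean count had a median of 64.8, 727 of them reached 100 counts and 50 reached 1000, and the highest mean, 16407, belonged to a transcript of the superoxide dismutase gene SOD2. Just inside the limit were transcripts of FZR1, POLD1 and SYNE2 at mean counts of 20.01, 20.03 and 20.04, and just outside it those of C4orf47, POLI and EIF4G1 at 19.87, 19.92 and 19.98.

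RNA was sequenced from 2 established human cell lines, U87 mg (glioblastoma) and DAOY (desmoplastic cerebellar medulloblastoma), grown as spheroidal aggregates in Matrigel inside electrotaxis channels. Each line was exposed to a direct current electric field (dcEF) of 250 V/m. There were 3 samples per line at each of 0, 2 and 8 h, and the 0 h samples, which had received no field, were the controls. Each sample pooled 3 channels, and 3 biological replicates were kept by RNA quality, from a larger set except in DAOY at 8 h. No field-free channels kept for 2 h or 8 h entered the analysis, so exposure and hours in the channel cannot be told apart. Each line is a single culture line. The study gave U87 mg a green fluorescent protein for some experiments, and whether the sequenced cells carried it is not given in the sources used here. The estimated counts of a sample summed to between 8.34e+06 and 1.56e+07. VIM, the gene of the filament protein vimentin, was present at 3997 to 5341 TPM, the abundance per transcript length scaled to the same sum in every sample, in U87 mg and at 1720 to 2970 TPM in DAOY. GFAP, which marks astrocytes, was at most 3.11 TPM in U87 mg, so the line labelled glioblastoma lacked that marker at all but trace levels. The glial markers S100B and OLIG2 were at most 0.173 and 1.40 TPM there. The glioma markers CD44, TNC and CHI3L1 were at 2565 to 3547, 322 to 549 and 76.3 to 156 TPM in U87 mg. In DAOY they were at 885 to 1533, 162 to 472 and 2.35 to 15.3 TPM. OTX2, a transcription factor of some medulloblastomas, was listed at 0 in U87 mg and at 1.15 to 2.44 TPM in DAOY. GLI1, a target of Hedgehog signalling active in other medulloblastomas, was higher in U87 mg, at 1.51 to 7.20 TPM against at most 0.932 in DAOY, and the cerebellar factors ZIC1 and ZIC2 were present in both lines. NES, also taken as a medulloblastoma marker, was higher in U87 mg (5.58 to 9.25 against 0.171 to 0.715 TPM), and SYP overlapped between the lines. The endothelial marker PECAM1 was at 5.46 to 12.9 TPM in DAOY and 0.598 to 2.30 in U87 mg. EPCAM and PTPRC were at most 2.44 TPM in either line.

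The structure behind the type can be read around the stop codon. The sequences below end at the annotated stop codon, which stands in capitals after 60 coding bases, and they come from GENCODE 29 transcripts on GRCh38, 5′ to 3′ on the transcribed strand. SRSF7, SRSF6 and HNRNPDL are shown because they encode splicing regulators with well-known transcripts of this kind, CCNL2 and RNF216 because their NMD sums were called as higher at 8 h in DAOY, and PDIA3 and B2M because they were among the most abundant.
SRSF7: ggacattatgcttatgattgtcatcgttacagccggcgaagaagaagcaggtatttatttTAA
SRSF6: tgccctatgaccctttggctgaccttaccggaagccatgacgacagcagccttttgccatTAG
HNRNPDL: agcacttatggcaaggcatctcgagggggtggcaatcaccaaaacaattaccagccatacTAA
CCNL2: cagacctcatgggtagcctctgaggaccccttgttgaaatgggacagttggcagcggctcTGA
RNF216: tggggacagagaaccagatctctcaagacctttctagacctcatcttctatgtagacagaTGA
PDIA3: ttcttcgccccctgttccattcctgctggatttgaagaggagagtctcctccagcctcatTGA
B2M: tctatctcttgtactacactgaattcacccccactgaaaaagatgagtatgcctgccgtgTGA
The SRSF7 transcript ENST00000443213 (chr2:38744918-38751352, minus strand) has 7 exons and stops in exon 3, 1138 bases before the last junction and with 4 exon junctions after the stop. The SRSF6 transcript ENST00000483871 (chr20:43457928-43461334, plus strand) also stops in exon 3 of 7, 534 bases before its last junction. The HNRNPDL transcript ENST00000630114 (chr4:82424630-82430408, minus strand) carries 301 codons and stops in exon 8 of 10, 127 bases before the last junction. The stop of the CCNL2 transcript ENST00000481223 (chr1:1386708-1399311, minus strand) lies in exon 7 of 12, and that of the RNF216 transcript ENST00000389900 (chr7:5622695-5761138, minus strand) in exon 4 of 16. In PDIA3 (ENST00000434494, chr15:43746453-43771545, plus strand) the frame closes in exon 2 of 14 with 12 junctions still to come, and in B2M (ENST00000349264, chr15:44711517-44718067, plus strand) in exon 2 of 4, 67 bases before the last junction.

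Across the set the same picture held, which follows from how the type is assigned. Of the 1935 transcripts, 1933 were found in GENCODE 29, where 1923 still carried the type. A stop codon was annotated for 1925, and in 1913 of these (99.4%) it lay more than 50 bases before the last exon junction, against 0.838% of the protein coding transcripts with a mean of at least 20 counts. The median distance from stop to last junction was 449 bases, with quartiles of 202 and 1002. Protein coding transcripts had a median of -134 bases, since their stop usually lies in the last exon. Both kinds had a median of 9 exons, but the median coding length was 312.5 bases in the NMD transcripts and 1260 in the protein coding ones. The stop codon was TGA in 55.74%, TAA in 25.97% and TAG in 18.29%.

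**Figure D1:**
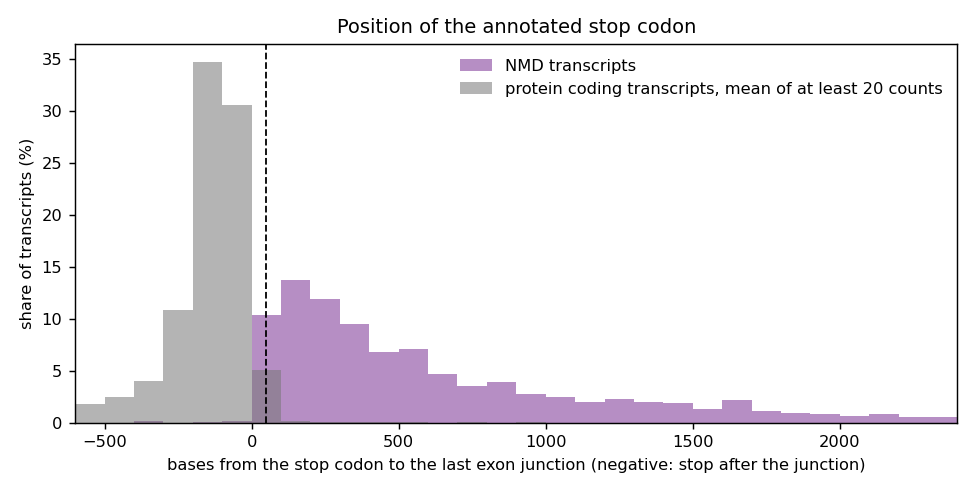
Share of transcripts (%) by the number of bases from the annotated stop codon to the last exon junction, for the NMD transcripts and for protein coding transcripts with a mean of at least 20 counts; negative values mark stops after the last junction and the dashed line marks 50 bases. Nearly all NMD transcripts sit to the right of the line (median 449 bases) and nearly all protein coding transcripts to its left (median -134 bases); 5.30% and 9.79% of them lie outside the range drawn.

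What these transcripts share with the other transcripts of the gene limits how well they can be counted. An NMD transcript often differs from a protein coding one by a single exon, and reads that match both are divided between them by estimation. Stretches of 31 bases found in no other transcript of the same gene tell a transcript apart from the rest of its gene. They numbered a median of 29 per NMD transcript against 55 per protein coding transcript, and 359 NMD transcripts had none. Sequence shared with other genes was not taken into account. In 1108 of the 8521 cases (13%) in which an NMD transcript had at least 50 counts in a sample, another replicate of the same group had less than 1. This happened in 9.15% of such cases for protein coding transcripts and in 0.096% when all transcripts of each gene were summed. Among NMD transcripts it was 15.8% in those with no such stretch and 9.89% in those with more than 100. For this reason, the NMD transcripts were also summed per gene (7.08% of cases, a median coefficient of variation between replicates of 0.369 in place of 0.454), and the share of these sums in the gene was tested on its own.

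1 library stood apart in these values before any comparison. In DAOY at 0 h, replicate 0, NMD transcripts made up 24.3% of the counts of 15 ribosomal protein genes, against 6.07 to 10.0% in the other 17 samples. In the same library CCT3, which encodes a subunit of the TRiC chaperonin, had no NMD counts, and the NMD transcripts of HINT1 took 72.8% of the gene, the lowest of all samples. Some of the results below that leaving out this library changed are also given without it.

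As a class, NMD transcripts took a small part of the RNA. In U87 mg they made up 3.27%, 3.08% and 3.13% of all counts at 0 h (mean 3.16% ± 0.102, SD, n = 3), 3.26%, 3.25% and 3.28% at 2 h (3.26% ± 0.0145) and 3.05%, 3.26% and 3.13% at 8 h (3.15% ± 0.110). In DAOY the shares were 3.95%, 3.32% and 3.65% at 0 h (3.64% ± 0.313), 3.39%, 3.46% and 3.64% at 2 h (3.495% ± 0.130) and 3.38%, 3.43% and 3.45% at 8 h (3.42% ± 0.0355). Samples of the times overlapped within each line. Every DAOY sample, at 3.32 to 3.95%, lay above every U87 mg sample, at 3.05 to 3.28%. At 0 h the difference was 0.479 percentage points, or 0.326 without DAOY replicate 0. The SOD2 transcript alone had 42202, 21815 and 20394 counts in DAOY at 0 h, of 362746, 382080 and 337094 NMD counts. In U87 mg it had 9160, 5650 and 10940 of 350091, 359456 and 488617, so part of the difference came from this transcript. In TPM, which corrects for length, the lines overlapped at 0 h, at 3.92 to 4.82% in DAOY and 3.94 to 4.18% in U87 mg. On that scale the U87 mg samples of 2 h, at 4.20 to 4.49%, lay above those of 0 h, and those of 8 h, at 3.77 to 4.21%, overlapped with both.

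Relative to the counts of their own genes, the NMD transcripts held a mean of 15.9% ± 0.665 in U87 mg at 0 h, 16.2% ± 0.201 at 2 h and 15.5% ± 0.110 at 8 h (SD, n = 3 each). The DAOY means were 18.5% ± 1.199, 17.9% ± 0.681 and 17.5% ± 0.225. The 2 h and 8 h samples overlapped with those of 0 h in both lines, while in U87 mg all samples of 2 h, at 15.96 to 16.33%, lay above those of 8 h, at 15.40 to 15.61%. The lines did not overlap at 0 h, where 17.4 to 19.8% in DAOY faced 15.2 to 16.5% in U87 mg, and without DAOY replicate 0 they still differed by 2.01 percentage points. A sum of this kind is set by a few abundant genes, since the 10 transcripts with the highest mean counts held 17.3% of all NMD counts.

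The median over genes weights each gene alike. It covered the 1271 genes that reached 100 counts in each sample and moved in 1 comparison. In DAOY it was 13.55 to 14.57% at 0 h (14.2% ± 0.535), 13.70 to 13.94% at 2 h (13.8% ± 0.132) and 14.82 to 15.10% at 8 h (15.0% ± 0.137). The 8 h samples thus lay above all others of the line, by 0.803 percentage points over 0 h and by 0.899 without replicate 0 of 0 h. The size depended on the minimum count, because the same difference was 0.142 when every annotated NMD transcript was taken. In U87 mg the median was 13.7% ± 0.151, 13.8% ± 0.493 and 14.0% ± 0.208 at the 3 times, and the samples overlapped.

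**Figure D2:**
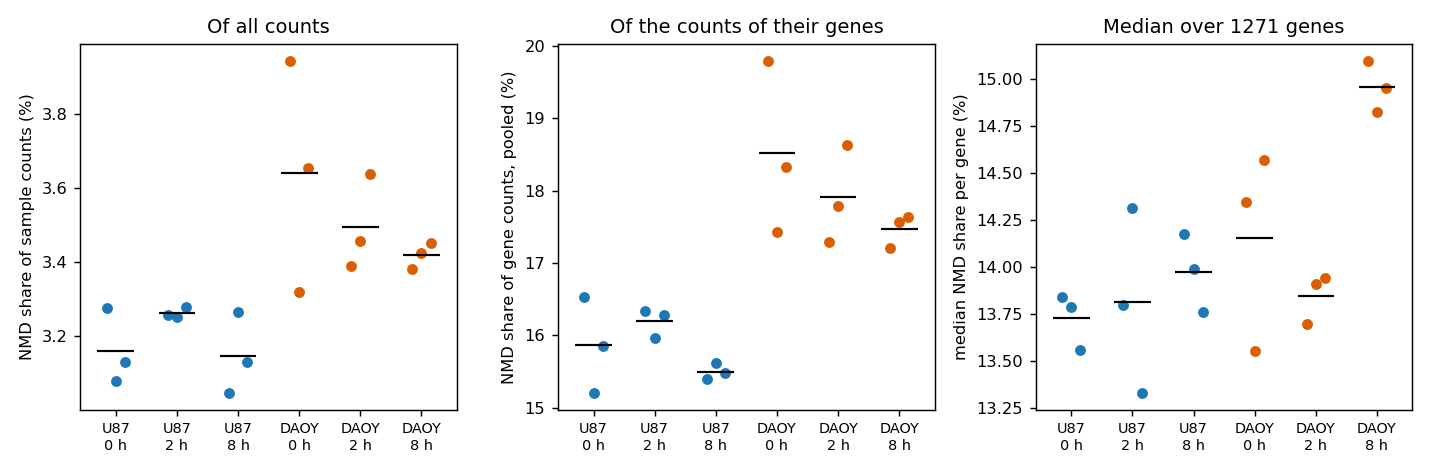
NMD transcripts as a share (%) of all counts, as a share (%) of the counts of their genes, and as the median share (%) over 1271 genes, with 1 point per sample, 3 samples per cell line and time, and a line at the mean. DAOY lies above U87 mg in the first 2 panels (3.32 to 3.95% against 3.05 to 3.28% of all counts), and only the median over genes separates DAOY at 8 h (14.82 to 15.10%) from DAOY at 0 h.

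Behind the median, genes differed widely. The mean share of a gene over the 18 samples had quartiles of 5.81%, 14.4% and 32.5%. In 71 genes the NMD transcripts stayed under 5% in every sample, in 407 they exceeded 10% in every sample, and in 62 they held more than 50% of the counts throughout. Among the abundant genes, the protein disulfide isomerase gene PDIA3 had 93.9% of its counts on NMD transcripts (89.7 to 94.9%). ROCK1, a kinase that drives actomyosin contraction, had 90.1% (84.0 to 93.6%). The histidine triad protein gene HINT1 stood at 92.3% (72.8 to 98.2%) and SOD2 at 86.3% (80.1 to 90.2%). The RNA-binding protein gene QKI held 70.9% (66.0 to 75.6%) and the retromer subunit gene VPS35 73.1% (66.3 to 81.9%). For B2M, the light chain of MHC class I molecules, the mean was 72.4% (50.1 to 78.1%), with its lowest value in the DAOY library that stood apart. As in the other genes, the division of reads between transcripts is an estimate.

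**Figure D3:**
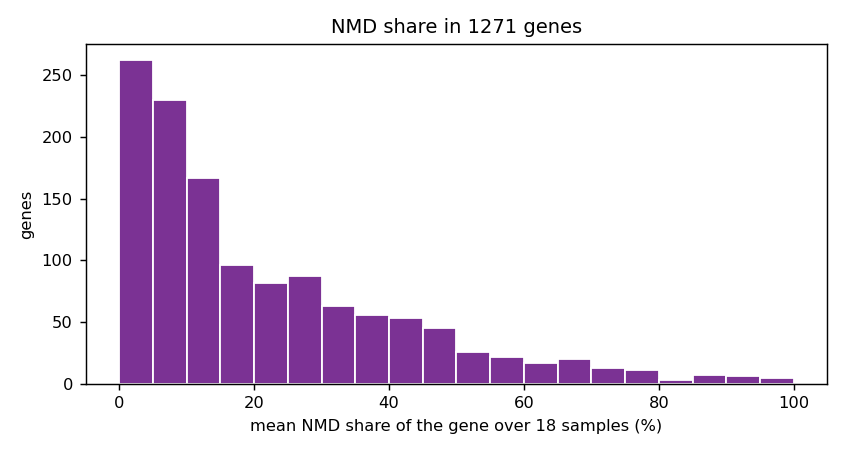
Number of genes by the mean share (%) of their counts that fell on NMD transcripts, over 18 samples, for the 1271 genes with at least 100 counts in every sample, in steps of 5 percentage points. Most genes lie at the low end (median 14.4%), with a tail of 62 genes above 50% in every sample.

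Some of the most abundant NMD transcripts were also abundant messages by TPM. The B2M transcripts ENST00000557901 and ENST00000349264 averaged 3513 TPM (2218 to 5489) and 1962 TPM (1210 to 3021), and the PDIA3 transcript above averaged 786 TPM (573 to 1079). Others differed between the lines at 0 h. A transcript of LDHA, the lactate dehydrogenase subunit of glycolysis, averaged 1094 TPM in U87 mg and 239 TPM in DAOY. Those of SOD2 (252 and 1028 TPM) and of the ribosomal protein gene RPS25 (339 and 873 TPM) were higher in DAOY.

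The first comparison asked which NMD transcripts changed with 2 h of exposure. In U87 mg, 0 of the 1877 members that passed the count filter were called (edgeR's quasi-likelihood test, Benjamini-Hochberg adjusted p below 0.05 and at least a 2-fold change), where 0% of all 40613 transcripts were called. At an unadjusted p below 0.05 there were 128 (6.82%, against 5.56% of all transcripts). DESeq2 called 16, where it called 0.579% of all transcripts. Summed per gene, 0 of 1570 NMD sums were called, against 0% of all 22388 sums. There were 147 (9.36%) at an unadjusted p below 0.05, against 7.79% of all sums, and 11 called by DESeq2 (0.228% of all sums). The share of the NMD sum in its gene, tested by edgeR's diffSpliceDGE at an adjusted p below 0.05, fell in 4 of 1533 genes and rose in 0, where 0.0548% of all type shares were called.

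The 4 genes were CCT3, NPEPPS, RSRC1 and SCRN3. CCT3 had 973, 974 and 781 NMD counts at 0 h in U87 mg, per 1e7 counts of the library (hereafter scaled counts), and 348, 114 and 309 at 2 h. Its NMD share thereby went from a mean of 36.4% to 12.5% with no overlap (adjusted p = 0.00528, edgeR's diffSpliceDGE), on a log2 scale by -1.54, while at 8 h it stood at 23.8%, 14.7% and 30.0%. The NMD sum of NPEPPS, a cytosolic aminopeptidase, was 66.7, 65.9 and 85.2 scaled counts at 0 h and 0 in all 3 libraries at 2 h, at least 23.0-fold lower (adjusted p = 0.00352, edgeR's diffSpliceDGE). A floor of 3 counts in each library stands for a count of 0 in this and the following bounds. In RSRC1, whose protein takes part in splicing, 48.6, 64.6 and 54.5 scaled counts met 0.5, 0 and 0 (adjusted p = 0.000932, edgeR's diffSpliceDGE). SCRN3 had 48.8, 27.9 and 24.2 against 0, at least 10.7-fold lower (adjusted p = 0.0291, edgeR's diffSpliceDGE). At 8 h the NMD sums of NPEPPS, RSRC1 and SCRN3 were again at 77.6, 90.4 and 20, at 71.7, 53.1 and 19.3 and at 26.6, 22.5 and 28.9 scaled counts. The calls of CCT3, NPEPPS and RSRC1 held when any 1 of the 6 libraries was left out, and that of SCRN3 was lost without any 1 of the 2 h libraries.

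Of the NMD sums not called in U87 mg at 2 h, the smallest p among the rises belonged to RBMX, which encodes a splicing regulator of the hnRNP type (log2 fold change 1.17 ± 0.231, SE, edgeR adjusted p = 0.619), and to TOP2B, a DNA topoisomerase (0.81 ± 0.172, edgeR adjusted p = 0.619).

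In DAOY at 2 h, 0 of 1881 members were called, where 0% of 41336 transcripts were called by edgeR. An unadjusted p below 0.05 was reached by 66 (3.51%, against 3.07% of all transcripts), and DESeq2 called 12 (0.426% of all transcripts). Of the NMD sums, 0 of 1569 were called, against 0% of 23456. An unadjusted p below 0.05 was reached by 83 (5.29%, against 3.24% of all sums), and DESeq2 called 5 (0.102% of all sums). The NMD share rose in IL6ST and TMEM67 and fell in EIF3E, 3 of 1537 genes, where 0.0347% of all type shares were called. IL6ST encodes gp130, the signalling chain of the interleukin 6 receptor family. Its NMD transcript was at 0 in the 3 DAOY libraries of 0 h and at 34.1, 23.6 and 37.5 scaled counts at 2 h, at least 10.4-fold higher (adjusted p = 0.00652, edgeR's diffSpliceDGE), yet it took only 0.292 to 0.548% of the gene. TMEM67, the gene of the ciliary membrane protein meckelin, went from 0 in all 3 to 37.4, 50.2 and 53.8, at least 15.5-fold higher (adjusted p = 0.00652, edgeR's diffSpliceDGE), which was 20.8 to 23.8% of that gene's counts. EIF3E, a subunit of the translation initiation factor eIF3, had 462, 14.2 and 31.6 scaled NMD counts at 0 h and 2.9, 2.8 and 0 at 2 h (log2 difference of the share -6.21, adjusted p = 0.0281, edgeR's diffSpliceDGE). The first of these values came from the library that stood apart, and without it the difference was -3.35 and was not called. The call of EIF3E was also lost without any 1 of the 2 h libraries, and those of IL6ST and TMEM67 without any 1 of DAOY 0 h replicate 0 and 2 h replicates 0 and 2.

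At 8 h in U87 mg, edgeR called 0 of 1877 members, where 0% of 40613 transcripts were called. An unadjusted p below 0.05 was reached by 96 (5.11%, against 6.30% of all transcripts), and DESeq2 called 12 (0.842% of all transcripts). Of the NMD sums 0 of 1570 were called, against 0.0313% of 22388. An unadjusted p below 0.05 was reached by 124 (7.90%, against 10.8% of all sums), and DESeq2 called 10 (0.75% of all sums). The share was called in 1 of 1533 genes, where 0.0342% of all type shares were called. That gene was MAP3K4, a kinase that acts upstream of p38 and JNK. Its 2 NMD transcripts together had 54.7, 81.7 and 34.0 scaled counts at 0 h and 0 in the 3 libraries at 8 h, at least 23.2-fold lower (adjusted p = 0.0214, edgeR's diffSpliceDGE), and at 2 h the values were 46.2, 0 and 29.3. The call was lost without any 1 of the 6 libraries. The sum with the smallest p was that of ZC3H11A, which encodes a zinc finger protein of mRNA export (log2 fold change 1.30 ± 0.203, SE, edgeR adjusted p = 0.0746). The sum of SMPD4, a sphingomyelinase, came next with -2.23 ± 0.362 (SE, edgeR adjusted p = 0.0755).

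The 8 h comparison in DAOY gave the most calls of the 4 comparisons of time. Again 0 of 1881 single members passed, where 0% of 41336 transcripts were called by edgeR. An unadjusted p below 0.05 was reached by 162 (8.61%, against 10.3% of all transcripts), and DESeq2 called 42 (2.94% of all transcripts). Summed per gene, the NMD transcripts of 9 of 1569 genes were called by edgeR, against 0.942% of all 23456 sums (87 higher and 134 lower). The NMD sums rose in CCNL2, IL6ST, RSRP1, FUBP1 and RNF216 and fell in LPCAT3, GSTK1, SEPSECS and RP11-111K18. The median log2 fold change of the 1569 NMD sums was -0.02 and that of all sums -0.01.

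CCNL2 encodes cyclin L2, a partner of CDK11 that works with splicing factors. Its NMD sum was 0 in the 3 DAOY libraries at 0 h, 18.8, 94.4 and 12.1 scaled counts at 2 h and 261, 452 and 64.7 at 8 h, at least 85.3-fold higher than at 0 h (adjusted p = 0.0441, edgeR's quasi-likelihood test). The NMD share of CCNL2 went from 0 to 17.4%, 23.4% and 5.16% and was also called (adjusted p = 0.0144, edgeR's diffSpliceDGE), while its protein coding sum differed by 1.082 on the log2 scale and was not called (edgeR adjusted p = 0.224). In RSRP1, which encodes an arginine and serine rich protein, scaled NMD counts of 83.3, 62.2 and 101.1 at 0 h stood against 358.5, 723 and 525 at 8 h (log2 fold change 2.78 ± 0.377, SE, adjusted p = 0.0237, edgeR's quasi-likelihood test). The NMD share of RSRP1 was 34.0%, 20.03% and 38.2% at 0 h and 40.8%, 46.1% and 50.3% at 8 h, without overlap, but its test was not passed (edgeR's diffSpliceDGE, unadjusted p = 0.159).

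FUBP1 encodes a single-strand DNA and RNA binding protein known as a regulator of MYC. Its NMD sum was at 137, 213 and 274 scaled counts at 0 h and at 771, 650 and 641 at 8 h (log2 fold change 1.81 ± 0.327, SE, adjusted p = 0.0424, edgeR's quasi-likelihood test). The protein coding sum of FUBP1 rose too, by 1.52 on the log2 scale (edgeR adjusted p = 0.013), and the NMD share overlapped between the times, at means of 16.4% and 19.4%. RNF216 encodes an E3 ubiquitin ligase. Its NMD sum went from 86.8, 69.6 and 83.2 to 229, 255 and 263 scaled counts (log2 fold change 1.71 ± 0.339, SE, adjusted p = 0.0494, edgeR's quasi-likelihood test), whereas its protein coding sum differed by -0.21 on the log2 scale and was not called. The NMD transcripts thereby took 40.1%, 39.9% and 44.9% of RNF216 at 8 h against 20.9%, 12.3% and 15.1% at 0 h (log2 difference of the share 1.39, unadjusted p = 0.00221, adjusted p = 0.368, edgeR's diffSpliceDGE). That difference was 1.59, not called, without DAOY 0 h replicate 0. In U87 mg the RNF216 share was 11.7%, 12.98% and 10.8% at 0 h and 27.0%, 20.9% and 27.5% at 8 h, also without overlap. IL6ST went from 0 in all 3 libraries to 27.1, 63.9 and 58.1 scaled counts, at least 16.3-fold higher (adjusted p = 0.0176, edgeR's quasi-likelihood test), and held at most 0.694% of the gene.

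The 4 sums that fell belonged to SEPSECS, GSTK1 and LPCAT3 and to 1 locus with no protein coding sum tested. SEPSECS makes selenocysteine on its tRNA. Its NMD counts were 90.1, 91.1 and 115 per 1e7 at 0 h and 28.5, 23.7 and 29 at 8 h (log2 fold change -1.80 ± 0.278, SE, adjusted p = 0.0312, edgeR's quasi-likelihood test), and its protein coding sum fell by 1.21 on the log2 scale (edgeR adjusted p = 0.044). GSTK1, a glutathione transferase, had 69.7, 80.1 and 82.6 against 15.3, 28.1 and 17.4 (-1.86 ± 0.366, SE, adjusted p = 0.0491, edgeR's quasi-likelihood test), and its NMD share went from 20.6%, 14.8% and 19.5% to 4.35%, 10.4% and 6.77%. LPCAT3, which adds fatty acids to lysophospholipids, had 113, 68.1 and 35.0 against 11.2, 8.0 and 11.3 (-2.76 ± 0.547, SE, adjusted p = 0.0494, edgeR's quasi-likelihood test). Nearly all counts under the name RP11-111K18 (AC010132.3 in GENCODE 29) fell on its NMD transcript (a mean of 99.4% at 8 h). Transcripts under other names at the same place are not in that share. Its NMD sum went from 541, 463 and 502 to 250, 211 and 223 (-1.07 ± 0.159, SE, adjusted p = 0.0307, edgeR's quasi-likelihood test).

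None of the 9 genes (0) was called when the fit held only the 6 samples compared. Without DAOY 0 h replicate 0, replicate 1 or replicate 2, 2, 1 and 0 sums were called, and without any 1 of the 8 h libraries 0 were, with IL6ST among the calls in the first 2 of these fits. DESeq2 called 43 NMD sums, and 3.25% of all sums.

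**Figure D4:**
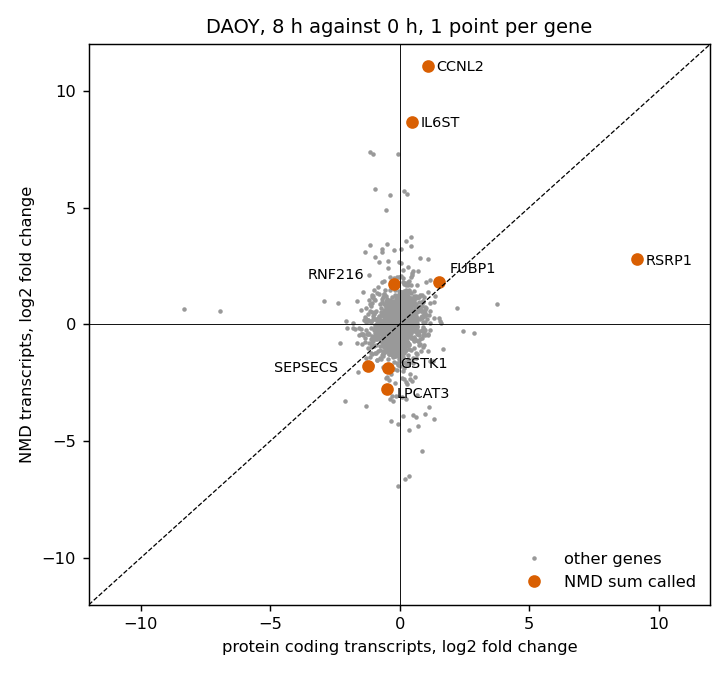
Fitted log2 fold change of the protein coding sum (horizontal) and of the NMD sum (vertical) of each gene in DAOY, 8 h against 0 h, with 1 point per gene, the dashed line where both are equal, and 8 of the 9 called NMD sums in colour, RP11-111K18 having no protein coding sum. FUBP1 and SEPSECS lie near the line (1.81 against 1.52 and -1.80 against -1.21), RNF216 off it (1.71 against -0.21); positions of CCNL2 and IL6ST depend on NMD counts of 0 at 0 h, and that of RSRP1 on protein coding counts at or near 0 at 0 h, and are not bounds.

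The share test in DAOY at 8 h called 6 of 1537 genes, 4 higher and 2 lower, where 0.0972% of all type shares were called. Besides CCNL2 and IL6ST (adjusted p = 0.00239, edgeR's diffSpliceDGE), the share rose in TMEM67 and MSL1. MSL1 encodes a scaffold of a histone acetyltransferase complex, and its NMD counts were 0, 3.7 and 0 per 1e7 at 0 h and 79.2, 38.4 and 91.8 at 8 h (log2 difference of the share 5.04, adjusted p = 0.0223, edgeR's diffSpliceDGE). The share of TMEM67 was 1.01%, 20.3% and 11.2% against 0, with its counts at least 6.03-fold higher (adjusted p = 0.0147, edgeR's diffSpliceDGE). The share fell in ZDHHC7, a palmitoyltransferase, from 1.89%, 4.72% and 1.35% to at most 0.028%, with counts at least 4.13-fold lower (adjusted p = 0.0147, edgeR's diffSpliceDGE). It fell in TRIM5, a restriction factor against retroviruses, from 76.1%, 30.5% and 32.6% to 0, 3.56% and 0 (adjusted p = 0.0395, edgeR's diffSpliceDGE), by -5.30 on the log2 scale or by -4.65, not called, without DAOY 0 h replicate 0. Of these calls, that of IL6ST held without any 1 of the 6 libraries, and each of the others was lost without at least 4 of the 6. Without DAOY 0 h replicate 0, 3 genes were called.

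The NMD share in DAOY at 8 h was also compared with 0 h gene by gene. Of the 1271 genes behind the median, 128 (10.1%) had a higher NMD share in all 3 samples of 8 h than in all 3 of 0 h, and 56 (4.41%) a lower one. Over the shares of all transcript types in such genes, 7.85% were higher and 8.49% lower without overlap. NMD sums spread more than the protein coding sums of the same genes. In DAOY at 8 h 19.8% of the NMD sums tested and 7.56% of those protein coding sums had a log2 fold change of at least 1 in either direction, against 15.6% of all sums. This gap was not particular to that comparison. It was 13.2% against 2.35% in U87 mg at 2 h, 11.7% against 2.42% in U87 mg at 8 h and 13.8% against 3.23% in DAOY at 2 h.

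Splicing factors whose own transcripts are known NMD targets were then taken as groups. The group of SR proteins and TRA2 factors, which bind exonic enhancers and promote the use of exons, had 9 members in 7 genes. Its NMD sums were not called in any comparison of time, and 0 of the 7 shares were called in DAOY at 8 h (edgeR's diffSpliceDGE). In that comparison 2 of the 7 had an unadjusted p below 0.05, against 3.67% of all type shares. All 7 differences of the share were above 0 there, with a median of 0.92 on the log2 scale (0.33 to 1.70), against a median of 0.0030 over all type shares tested. Without DAOY 0 h replicate 0, the library that stood apart, 5 of 7 were above 0 and the median was 0.53. In 4 of the 7 genes the shares of 8 h lay above those of 0 h without overlap, where 7.85% of the shares of all transcript types did. In U87 mg the median was -0.32 at 2 h, with 1 of 7 above 0, and -0.02 at 8 h, with 3 of 7 above 0. The pooled NMD share of the group in U87 mg was 6.67%, 7.75% and 5.43% at 2 h, below the 8.27 to 10.6% of 0 h, and SRSF6 alone had an unadjusted p below 0.05 there (log2 difference of the share -0.74, adjusted p = 0.760, edgeR's diffSpliceDGE). The group's pooled NMD share in DAOY was 5.54%, 10.4% and 10.5% at 0 h, 11.2%, 11.9% and 10.6% at 2 h and 13.2%, 14.1% and 12.04% at 8 h, and the lowest of these came from the library that stood apart.

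SRSF7 had the smallest p of the group. Its NMD share was 40.0%, 31.3% and 33.5% in DAOY at 0 h, 25.2%, 38.8% and 37.7% at 2 h and 58.7%, 69.6% and 66.9% at 8 h (log2 difference of the share at 8 h 0.92, unadjusted p = 0.00734, adjusted p = 0.661, edgeR's diffSpliceDGE). The groups of 0 h and 8 h did not overlap, and in U87 mg 27.5%, 31.3% and 26.8% stood against 33.6%, 43.5% and 36.9%, also without overlap. NMD counts of SRSF7 in DAOY were 585, 524 and 549 per 1e7 at 0 h and 611, 1168 and 644 at 8 h, while the gene as a whole had 1464, 1674 and 1641 and then 1041, 1678 and 963. In SRSF6 the share went from 14.2%, 28.8% and 25.4% to 31.4%, 33.4% and 32.0% in DAOY (log2 difference of the share 0.54, unadjusted p = 0.0807, edgeR's diffSpliceDGE). That difference was 0.26 without DAOY 0 h replicate 0. The SRSF6 gene had 994 to 1611 scaled counts at 8 h after 2151 to 2357 at 0 h. SRSF5 had 0, 7.95% and 5.07% at 0 h and 17.4%, 16.5% and 8.02% at 8 h (log2 difference of the share 1.70, unadjusted p = 0.0245, edgeR's diffSpliceDGE). Its difference was 1.11 without DAOY 0 h replicate 0. SRSF3, SRSF1 and TRA2B overlapped between 0 h and 8 h in DAOY, at mean shares of 5.55%, 7.64% and 8.39% at 8 h.

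The hnRNP genes, whose proteins mostly bind silencers and intronic sites, had 14 members in 10 genes. None (0) was called in time by sums or shares (edgeR). At 8 h, 1 of 10 shares in DAOY and 2 of 10 in U87 mg had an unadjusted p below 0.05, against 3.67% and 2.41% of all type shares. In DAOY at 8 h, 6 of 10 differences of the share were above 0, with a median of 0.04. HNRNPDL had the smallest p in both lines. Its NMD share was 5.58%, 1.85% and 2.71% in U87 mg at 0 h, 6.85%, 4.07% and 4.53% at 2 h and 16.7%, 7.91% and 8.74% at 8 h (log2 difference 1.71, unadjusted p = 0.000131, adjusted p = 0.170, edgeR's diffSpliceDGE). In DAOY it was 4.66%, 2.57% and 1.26% at 0 h and 9.41%, 7.65% and 10.1% at 8 h (1.70, unadjusted p = 0.0147, adjusted p = 0.890, edgeR's diffSpliceDGE), so neither line overlapped between 0 h and 8 h. The DAOY difference was 2.26, not called, without DAOY 0 h replicate 0. Leaving out the first of the U87 mg libraries of 0 h (replicate 0) moved the U87 mg difference to 2.26, which was called.

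TARDBP is the gene of TDP-43, an hnRNP that binds its own mRNA. NMD transcripts held 35.3 to 41.5% of its counts in all 18 samples. Its NMD sum had 863 to 1262 scaled NMD counts in the 0 h samples of both lines and 1615 to 1646 in DAOY at 8 h (log2 fold change 0.60 ± 0.118, SE, edgeR adjusted p = 0.0491, below the 2-fold limit).

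**Figure D5:**
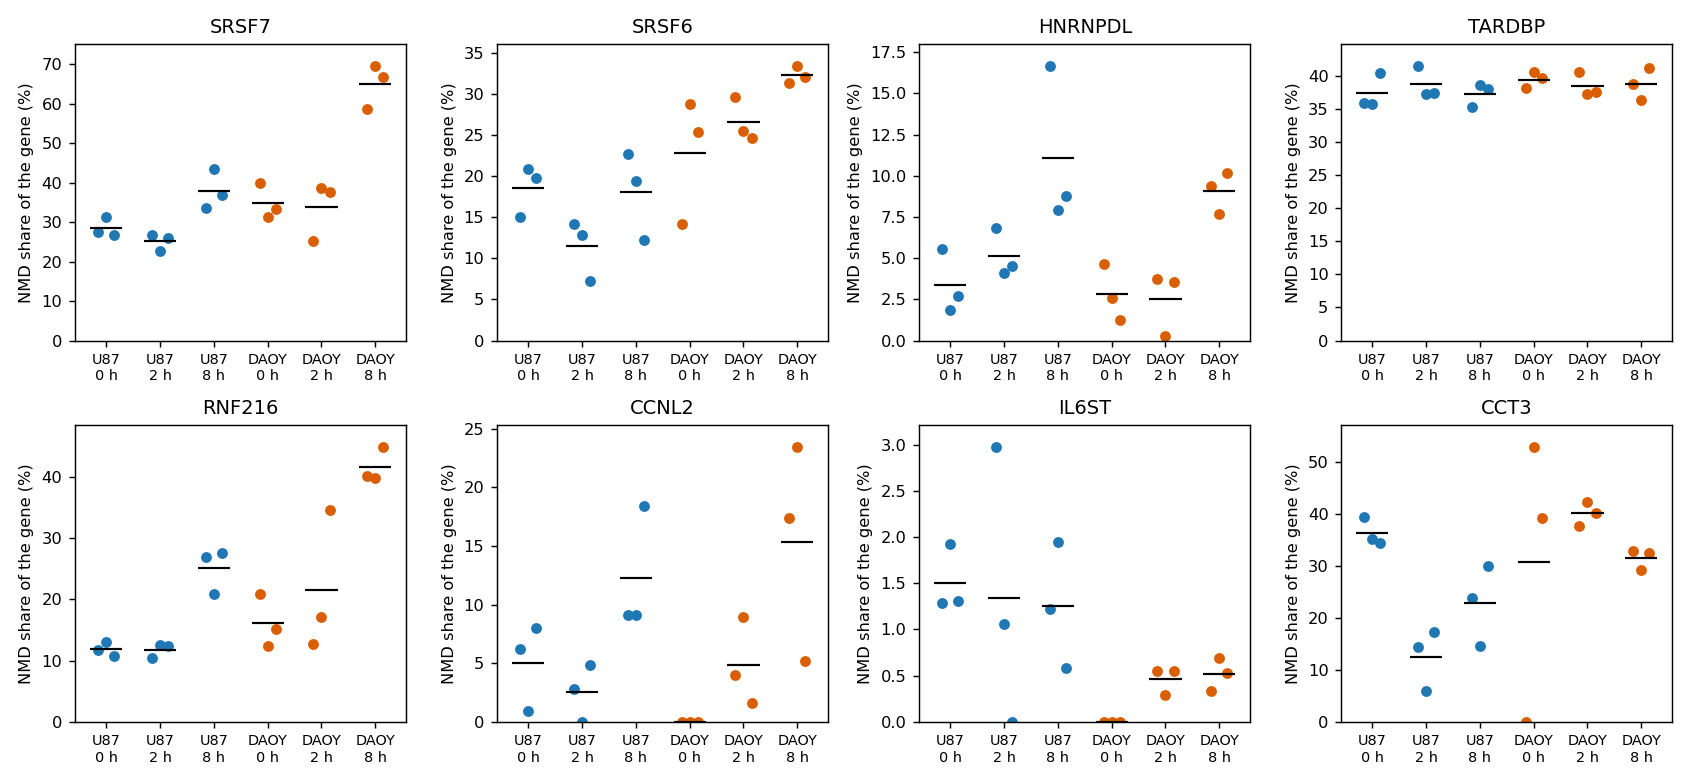
Share (%) of a gene's counts on NMD transcripts in 8 genes, with 1 point per sample, 3 samples per cell line and time, and a line at the mean; each panel has its own scale from 0. SRSF7 (58.7 to 69.6%) and RNF216 (39.9 to 44.9%) are highest in DAOY at 8 h, TARDBP lies at 35.3 to 41.5% throughout, and CCT3 is lowest in U87 mg at 2 h apart from a value of 0 in DAOY at 0 h, replicate 0.

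In the other groups too, no NMD sum and no share was called in a comparison of time (0 by edgeR). Between 0 and 4 shares of a group, of 1 to 14 tested, had an unadjusted p below 0.05 in any of these comparisons (edgeR's diffSpliceDGE), against 2.41 to 3.67% of all type shares. The most were 4 of 13 in the ribosomal protein genes in DAOY at 2 h, all lower, where 3.10% of all type shares did. Without DAOY 0 h replicate 0 this was 1 of 14. In DAOY at 8 h it was 3 of 13, all lower, and 1 of 14 without that library, and in U87 mg at 8 h 3 of 14. CLK kinases, which phosphorylate SR proteins, and components of the U1 particle gave 14 members in 7 genes, of which 1 of 7 shares was above 0 in DAOY at 8 h (median -0.35, or -0.17 with 3 of 7 above 0 without DAOY 0 h replicate 0). The NMD share of CLK1 was 34.9%, 32.4% and 25.3% at 0 h and 28.7%, 26.1% and 32.5% at 8 h in DAOY. Cytosolic ribosomal protein genes gave 21 members in 15 genes, and 4 of the 13 tested shares were above 0 in DAOY at 8 h (median -0.08), against 10 of 14 without DAOY 0 h replicate 0 (median 0.28). At 2 h the median in DAOY was -0.63, and 0.15 without that library. RPS25 was the one with a large and steady NMD share, at 38.6 to 67.3% in the 18 samples. Genes of the exon junction complex gave 5 members in 4 genes (RNPS1, RBM8A, MAGOHB and ACIN1), and the deadenylase CNOT7 was the only one among genes of termination and mRNA decay. Stress response genes with known NMD targets gave AMD1, an enzyme of polyamine synthesis, and UPP1, a uridine phosphorylase. The NMD sum of AMD1 in DAOY was 188, 215 and 349 scaled counts at 0 h and 585, 553 and 470 at 8 h (log2 fold change 1.17 ± 0.274, SE, edgeR adjusted p = 0.0747), and its NMD share overlapped, at means of 9.84% and 12.6%.

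The core factors of the pathway had no member (0 of 14 genes), so their protein coding sums were read instead. Of the 13 tested, edgeR called 0 in each of the 4 comparisons of time. In U87 mg at 2 h and 8 h and in DAOY at 2 h and 8 h, 3, 5, 0 and 5 had an unadjusted p below 0.05. Over all sums this held for 7.79%, 10.8%, 3.24% and 17.0%. Their median log2 fold change at 8 h was 0.36 in U87 mg (-0.11 to 0.75) and 0.43 in DAOY (-0.57 to 0.84). UPF1, the central helicase, had 0.63 ± 0.242 in U87 mg (SE, edgeR adjusted p = 0.384) and 0.75 ± 0.267 in DAOY (SE, edgeR adjusted p = 0.197). SMG5 had the largest value in DAOY, 0.84 ± 0.291 (SE, edgeR adjusted p = 0.189). In the exon junction complex, RBM8A had -0.62 ± 0.120 in DAOY at 8 h (SE, edgeR adjusted p = 0.0488), which missed the 2-fold limit. Among genes of mRNA decay the poly(A) ribonuclease PARN fell by 1.11 on the log2 scale in DAOY at 8 h (SE 0.127, edgeR adjusted p = 0.0135).

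Whether the 8 h change differed between the lines was tested in 1 fit of all 18 samples. Of all transcripts, 0.0138% of 50895 were called by edgeR and 0 of the 1934 members. An unadjusted p below 0.05 was reached by 93 members (4.81%, against 6.19% of all transcripts), and DESeq2 called 20 (0.88% of all transcripts). Of the NMD sums 0 of 1601 were called, against 0% of all 26477. An unadjusted p below 0.05 was reached by 114 (7.12%, against 8.15% of all sums), and DESeq2 called 12 (0.548% of all sums). The NMD share differed in 2 of 1577 genes, where 0.0288% of all type shares were called. In MAP3K4 the U87 mg share went from 10.8%, 14.7% and 7.94% to 0, and the DAOY share from 3.67%, 3.83% and 7.22% to 6.65%, 6.53% and 5.73% (adjusted p = 0.00294, edgeR's diffSpliceDGE). In MSL1 the U87 mg share was 4.69%, 3.18% and 5.24% at 0 h and 3.48%, 0.989% and 4.01% at 8 h, and that of DAOY 0, 0.239% and 0 at 0 h and 3.602%, 1.39% and 3.91% at 8 h (adjusted p = 0.00346, edgeR's diffSpliceDGE). Both calls held without any 1 of the 12 libraries compared. For the SR group all 7 differences were above 0, with a median of 0.67 (0.35 without DAOY 0 h replicate 0), and 0 were called or had an unadjusted p below 0.05.

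The last comparison set DAOY against U87 mg at 0 h. A transcript near 0 in one line passed the minimum count through the other, which was so for 14 members with a mean under 1 count in U87 mg and 6 in DAOY, so counts of calls, and the values of genes at or near 0 throughout one line, are a description here. edgeR called 239 of 1934 members, 136 higher in DAOY and 103 lower, where 15.7% of 50895 transcripts were called. Of the NMD sums 339 of 1601 were called, 180 higher and 159 lower, against 30.6% of 26477. DESeq2 called 379 members, where it called 22% of all transcripts, and 367 NMD sums, where it called 32.2% of all sums. Of the single members, 17.1% were called among those with over 100 stretches of their own and 10.0% among those with none.

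In most of these genes the protein coding sum had the same sign. It was tested for 328 of the 339, went the same way in 287 and was also called that way in 158. It was called the opposite way in 4, with ABI2, PMS1 and SUPT3H among them. FAF1, which encodes a factor bound to the death receptor FAS, had NMD counts of 413, 298 and 320 per 1e7 in DAOY at 0 h and 0 in all 9 U87 mg libraries, at least 141-fold higher, and the whole gene was at most 2.01 scaled counts in U87 mg. The ETS transcription factor FLI1 had 159, 131 and 180 against 0, 0 and 0.3, at least 64.3-fold higher, and 90.8 to 96.7% of its DAOY counts fell on NMD transcripts. TUSC3, GAGE1 and THY1, which encode a subunit of oligosaccharyltransferase, a cancer testis antigen and the surface protein CD90, were at least 62.5-fold, 54.6-fold and 49.1-fold higher in DAOY by their NMD sums. On the other side, the NMD sum of ZNF385D, a zinc finger gene, was 112, 109 and 75.8 in U87 mg and 0 in DAOY, at least 32.5-fold lower.

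Where the gene was present in both lines, the share tells the transcripts apart. It was called in 28 of 1577 genes, 13 higher and 15 lower in DAOY, where 0.813% of all type shares were called. The IL6ST gene had 5205 to 8289 scaled counts in DAOY and 6905 to 8379 in U87 mg at 0 h. Its NMD transcript had 0 in DAOY and 108, 144 and 90.3 in U87 mg, at least 37.4-fold lower (adjusted p = 9.44e-05, edgeR's diffSpliceDGE). That transcript also had 240, 99.4 and 0 unscaled counts in the U87 mg libraries of 2 h. In DAOY it had 23.2 to 33.9 at 2 h and 29.7 to 60.3 at 8 h, so the contrast rests on the DAOY libraries of 0 h. GTF2H2, a subunit of the transcription factor TFIIH, had 100.6, 47.2 and 141 in DAOY and 0 in all 9 U87 mg libraries, at least 39.5-fold higher. ARNT, the partner of hypoxia-inducible factors, had 67.5, 13.3 and 140 against 0 in the 3 U87 mg libraries of 0 h, at least 30.3-fold higher (adjusted p = 0.00379, edgeR's diffSpliceDGE), but 22.3 and 195 in 2 of the U87 mg libraries of 2 h. WRAP53, which guides telomerase to Cajal bodies, held 23.2%, 41.7% and 20.3% on NMD transcripts in U87 mg and at most 0.014% in DAOY at 0 h. TSPAN31, a tetraspanin, was at 8.45%, 32.9% and 28.2% in U87 mg and 0 in DAOY at 0 h.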

How the data were processed

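RNA from 18 samples, 3 for each of 2 cell lines at 0, 2 and 8 h, was sequenced after poly-A selection with a stranded, single-end protocol. The authors trimmed the reads, ran kallisto 0.43.0 on GENCODE 24 transcripts (GRCh38.p5) and deposited estimated counts and TPM values per transcript and sample. Whether a strand option was used is not given in the sources used here. The deposited table also holds p-values, q-values and log2 fold changes of the authors' sleuth comparisons, which were not used. Gene names are those of the table, cut at a full stop, so 44 names cover several genes of GENCODE 29.

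The members and gene lists were chosen with earlier results of these data known. Estimated counts were rounded to whole numbers, filtered with filterByExpr, scaled by TMM and tested with edgeR 4.0.16 (glmQLFit and glmQLFTest) in R 4.3.3 on the 9 samples of each line, or on all 18 between lines, with Benjamini-Hochberg adjustment over all features. Features were transcripts or sums of a gene's transcripts of 1 type, which take in NMD transcripts under 20 counts. A call needed both an adjusted p below 0.05 and a log2 fold change of 1 or more in either direction. Shares were tested with diffSpliceDGE at an adjusted p below 0.05, which gives no standard error, and differences between lines at an adjusted p below 0.05. Named genes were the 10 members highest in TPM, up to 5 called per direction, test and comparison with the largest change (where fewer than 3 were called, also the 2 per direction with the smallest p and a mean of at least 50 counts), and up to 4 per list highest in TPM. ROCK1, QKI, VPS35, SRSF5, TRA2B, the opposite calls between lines and the named factors were chosen after their values were seen. Values of some named genes are not reported here. Shares are per gene name, and scaled counts are per 1e7 counts of the library. The study calls the samples biological replicates, but the sources used here do not say whether they were separate cultures, so p-values measure the spread between these samples, which may be technical. Whether replicate numbers pair the samples was not settled, and the main fits used no pairing. Same-numbered samples of a line had deviations correlated by -0.215 to 0.269 in U87 mg and -0.208 to 0.456 in DAOY. For samples of other numbers the ranges were -0.222 to 0.255 and -0.292 to 0.384. Floors of 3 counts and the depth of 8.34e+06 to 1.56e+07 counts per sample cover counting error only. The test code was run on simulated counts with known changes. Their spread between replicates was set below that fitted here, a coefficient of variation of 0.760 to 0.882 for transcripts and 0.357 to 0.423 for sums. Division of reads between transcripts was not simulated either, so the run gives no power or error rate for these data. Alternatives were DESeq2 1.42.0, limma 3.58.1 on log2(TPM + 1) and log2(TPM + 0.1), other filters, scalings and sample sets, a replicate block, and each replicate left out. GENCODE 29 (GRCh38) gave structures and sequences, matched on the transcript identifier. Python 3.11.15, pandas 2.3.3 and matplotlib 3.10.9 were used.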

Additional observations from a re-analysis of the deposited data

Results flagged for a closer look

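In 2 genes the change of the NMD share from 0 h to 8 h differed between the lines by the test of that difference. For MAP3K4 the fitted log2 difference, DAOY minus U87 mg, was 9.59 (adjusted p = 0.00294, edgeR's diffSpliceDGE), a size that depends on the prior count because the 3 U87 mg libraries of 8 h were at 0, and DAOY alone gave 0.25 (adjusted p = 1.00). For MSL1 it was 5.65 (adjusted p = 0.00346, edgeR's diffSpliceDGE), with 5.04 in DAOY (adjusted p = 0.0223) and -0.61 in U87 mg (adjusted p = 1.00), where 2 of the 3 DAOY libraries of 0 h were at 0.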

How the results depend on the processing

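Of 468 comparisons of the main counts and shares with an alternative, 374 were rated the same, as were 1198 of 1431 for single genes. For the shares of the class, which had no test, this meant a move smaller than the pooled SD, and the sign was not checked. For the others it meant that direction and side of the threshold held. By DESeq2, 16, 12, 12, 42, 379 and 20 single members were called (U87 mg at 2 h and 8 h, DAOY at 2 h and 8 h, the lines at 0 h, and the difference between lines, in this order throughout), and 11, 10, 5, 43, 367 and 12 NMD sums. With limma on log2(TPM + 1), U87 mg at 2 h gave 2 members and 1 sum, and on log2(TPM + 0.1) 3 members and 3 sums, with 3 members in DAOY at 8 h. With no filter the sums were 4 in U87 mg at 2 h and 3 at 8 h, and the shares differing between lines 4. With at least 10 counts in every sample there were 2 sums and 2 shares in U87 mg at 8 h, 0 shares in DAOY at 2 h, 6 members and 3 shares in DAOY at 8 h, 212 sums between lines and 0 shares for their difference. All 18 samples in 1 fit gave 2 shares in U87 mg at 2 h, 1 sum and 3 shares at 8 h, 5 shares in DAOY at 2 h, and 5 members and 22 sums at 8 h. Only the 6 samples compared gave 8 shares in U87 mg at 2 h, 0 sums in DAOY at 8 h and 14 shares between lines. Sums in DAOY at 8 h were 14 by adjusted p alone and 14 without TMM. Shares by limma on the TPM ratio were 1, 0, 0, 0, 47 and 0, and for single transcripts 3 in DAOY at 8 h, 17 between lines and 0 for their difference, and genes joined by GENCODE identifier gave 3 in U87 mg at 8 h. The cause of these differences was not tested.

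Same-numbered samples had deviations correlated by a median of 0.121 in U87 mg and -0.0195 in DAOY, against -0.0222 and -0.1144 for other numbers. Between 2 h and 8 h the same-numbered values were 0.2687, 0.1213 and 0.2275 in U87 mg and 0.4561, 0.1234 and 0.1315 in DAOY. Other numbers gave -0.2115 to 0.0069 and -0.2922 to 0.1472 there, so pairing was not settled. With the replicate block 0 sums were called in DAOY at 8 h, and 2, 2, 1, 3, 24 and 1 shares.

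Leaving out 1 library gave 0 to 1, 0 to 0, 0 to 0, 0 to 0, 184 to 216 and 0 to 1 members, 0 to 2, 0 to 1, 0 to 0, 0 to 2, 278 to 329 and 0 to 1 sums, and 3 to 17, 1 to 5, 0 to 6, 2 to 6, 19 to 30 and 2 to 4 shares. In TPM, the change in U87 mg at 2 h was 0.282 points of all TPM and 1.01 points of the genes' TPM. Taking all NMD transcripts, the lines differed by 1.56 points of the genes' counts, and the median per gene by -0.294 and -0.108 in U87 mg at 2 h and 8 h, 0.142 in DAOY at 8 h and -0.264 between lines. With members of at least 50 counts the U87 mg medians changed by -0.853 and -0.0180, and over NMD and protein coding transcripts alone by -0.112 at 8 h for U87 mg and by -0.770 at 2 h for DAOY. Depth, at 8.34e+06 counts in the smallest library, limits transcripts near 20 counts most.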
